A study of Mus musculus with 6 samples.

Results

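The Myc, Max and Mlx network is a set of related transcription factors, taken here as the 10 genes Myc, Mycl, Max, Mxd1, Mxd3, Mxd4, Mxi1, Mnt, Mlx and Mlxip. They were picked by symbol from tables of 23935 gene symbols, and all 10 were present. The tables came from bone marrow-derived macrophages (BMDMs), with 3 PKM2ΔMAC and 3 PKM2FL/FL mice and 1 RNA-seq library per mouse. Both genotypes carried the floxed Pkm2 allele, and PKM2ΔMAC mice also carried LysM-Cre, which is inserted in the Lyz2 gene and is active in macrophages and in neutrophils, so that Cre and the loss of PKM2 cannot be told apart. Bone marrow was grown for 7 days in medium with M-CSF, and the labels give every culture as then primed over 16 h with LPS at 10 ng/mL together with IFN-γ at 25 ng/mL, with no group labelled as unprimed. Genes that this priming normally induces were near the floor in all 6 libraries, as given below, so the priming label is in doubt for every value that follows. The age of the marrow donors is not given in the sources used here.

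Proteins of this network share a basic helix-loop-helix leucine zipper, bind DNA as dimers and recognise the E-box, whose core reads CACGTG. Myc and Mycl pair with Max and activate genes for growth, ribosome production and metabolism. The Mxd proteins, Mxi1 and Mnt pair with the same Max, bring Sin3 and histone deacetylase corepressors, and so compete with Myc. Mlx is a second hub that pairs with Mlxip (MondoA) and responds to glucose, with Txnip as a well known target, and it can also pair with some Mxd proteins and Mnt. In macrophages, Myc is known for roles in proliferation and in activation. Pkm, the gene disrupted here, is itself linked to Myc through splicing factors that favour the PKM2 isoform.

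Libraries held 49957449 to 54524651 counts over all genes. Values are given as CPM, the counts of a gene relative to the library total scaled by the trimmed mean of M values (TMM), or as TPM, which also divides by gene length and serves to compare genes with each other. At this depth 3 counts correspond to 0.0546 to 0.0604 CPM. Values of 3 libraries are listed in the order of the mouse numbers 1 to 3, and errors are SD over n = 3 mice. Genotypes were compared with the edgeR quasi-likelihood test over 16516 genes, and a gene was called at a Benjamini-Hochberg adjusted p below 0.05. Pkm was lower in every PKM2ΔMAC library, at 1706 ± 8.08 CPM in PKM2FL/FL against 1068 ± 125 CPM in PKM2ΔMAC (log2 fold change -0.68, SE 0.077, adjusted p = 0.00913). The gene encodes PKM1 and PKM2, and its counts do not separate them, so this difference does not measure PKM2 alone. Pkm also shares 767 exonic bases with Gm49759 on the same strand, which had 1098 to 2824 counts per library. The Pkm call was lost without any one PKM2FL/FL library (adjusted p = 0.0754 to 0.0993) and with limma on TPM (0.118 to 0.156), with the difference between -0.68 and -0.61 in these settings. Lyz2, the Cre locus, was 17825 ± 860 CPM in PKM2FL/FL against 28.4 ± 3.80 CPM in PKM2ΔMAC (log2 fold change -9.29, SE 0.13, adjusted p = 8.53e-09).

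The labelled cell type and priming were checked against marker genes. All 10 macrophage markers were detected, and their summed level was 10473 to 11055 CPM in PKM2FL/FL and 10429 to 11345 CPM in PKM2ΔMAC. By edgeR 1 of the 10 was called, Itgam (CD11b), which was higher in PKM2ΔMAC (log2 fold change 0.43, adjusted p = 0.00272), and groups did not overlap for 2 markers that were higher and 1 that was lower. Over all genes 0.412% were called, and groups did not overlap for 17.2% (8.92% higher and 8.32% lower). Genes that LPS and IFN-γ normally induce were low in both genotypes: Nos2 reached at most 26 counts in a library, Il6 at most 18 and Il12b at most 6. Collagen transcripts of stromal cells were abundant, with Col1a1 at 1040 to 1538 TPM beside 1825 to 2482 TPM for the macrophage receptor Csf1r, a comparison made after the values were seen. The 5 stromal markers together ranged from 5000.3 to 5590 CPM in PKM2FL/FL and from 5004 to 6313 CPM in PKM2ΔMAC. Neutrophil and precursor markers summed to 21.2, 36.9 and 51.2 CPM in PKM2FL/FL against 124, 91.2 and 173 CPM in PKM2ΔMAC, and all 10 tested were higher by sign with 0 of 10 called. Groups did not overlap for 5 of these 10, all higher in PKM2ΔMAC, against 17.2% of all genes (8.92% higher). In such bulk libraries, a change in the share of a cell type and a change of RNA per cell cannot be told apart.

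Promoters were read as the 250 bases before and 50 bases after each transcription start in the RefSeq annotation of GRCm38.p6, and 9 of the 10 members matched, with 11 windows in all. Myc had no entry in the promoter set used here. The motif CACGTG, which reads the same on both strands, occurred in 4 of the 11 windows (36.4%) and in 7.15% of all 32851 promoters. These windows belonged to Max, Mxd4, Mnt and Mlx, so the letters that the network's own dimers recognise were present near the start of both hubs and of 2 antagonists. The looser form CANNTG, which includes the core above, occurred in 7 of the 11 windows, against 72.3% of all promoters. The E-box of each is shown with 20 bases on either side, 5′ to 3′ on the gene's strand, with CACGTG in capitals. In Max (chr12:76962226-76962271, minus strand) the motif began 3 bases before the start and so spans it, and it began 40 bases before the start in Mlx (chr11:101087230-101087275, plus strand), 123 bases in Mnt (chr11:74830781-74830826, plus strand) and 219 bases in Mxd4 (chr5:34187904-34187949, minus strand).
Max: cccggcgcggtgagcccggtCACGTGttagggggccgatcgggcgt
Mlx: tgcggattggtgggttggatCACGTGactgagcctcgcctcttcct
Mnt: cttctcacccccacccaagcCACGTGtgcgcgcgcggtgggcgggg
Mxd4: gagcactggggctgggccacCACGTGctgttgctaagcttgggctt
A match describes the letters only, and no binding was measured here.

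TPM here divides by the merged length of all annotated exons of a gene, which need not be that of the expressed transcript. On this scale the members had the same order by mean and by median, from Max to Mycl. Max was highest at a mean of 90.0 TPM over the 6 libraries, followed by Mnt at 64.3, Mxd4 at 63.7, Mlxip at 52.6, Mlx at 46.3, Myc at 32.8, Mxi1 at 19.3, Mxd1 at 10.8, Mxd3 at 2.82 and Mycl at 1.26 TPM. Mnt and Mxd4 were the only neighbours in that order whose ranges over all 6 libraries overlapped, with Mnt above Mxd4 in 4 of 6. In TPM the most abundant antagonists were thus Mnt and Mxd4 at nearly equal levels, and Max exceeded every other member in each library. This order depends on the merged lengths, which were 8483 bases for Mxd4, 8326 for Mlxip, 4627 for Mnt and 3598 for Max. In CPM, without length, Mxd4 was highest, with means of 151 in PKM2FL/FL and 150 in PKM2ΔMAC. Mlxip followed at 121 and 124 CPM, above Max at 93.4 and 87.2 CPM.

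**Figure D1:**
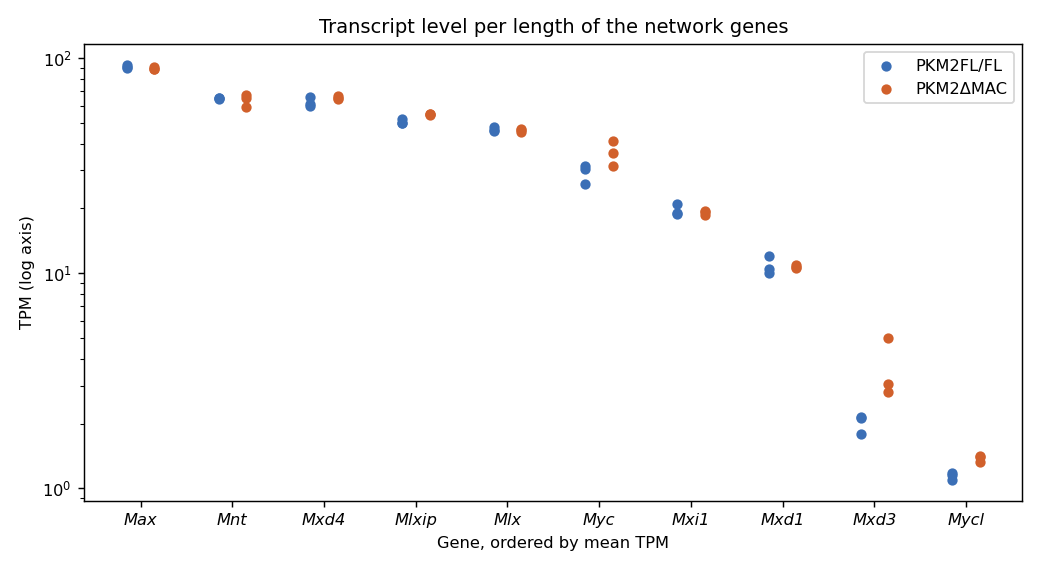
Transcript level of each network member in TPM (log axis), with 1 point per library and members ordered by their mean over 6 libraries. Max lies at the top with 88.6 to 92.9 TPM and Mycl at the bottom with 1.09 to 1.42 TPM, and only Mnt and Mxd4 overlap as neighbours.

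Summed over the 10 members, the network held 378, 380 and 376 TPM in PKM2FL/FL and 388, 384 and 397 TPM in PKM2ΔMAC. Max in TPM was 1.93 to 1.96 times Mlx in every library, so the proportion of the hubs to each other was nearly constant. The 5 antagonists Mxd1, Mxd3, Mxd4, Mxi1 and Mnt together were 5.12, 5.18 and 6.16 times the Myc level in PKM2FL/FL and 5.17, 4.35 and 4.03 times in PKM2ΔMAC, and the groups overlapped through PKM2ΔMAC 1. Myc per Max was 0.329, 0.350 and 0.288 in PKM2FL/FL and 0.349, 0.409 and 0.465 in PKM2ΔMAC, with the same overlap. Mlxip per Mlx was 1.04, 1.10 and 1.12 in PKM2FL/FL and 1.18, 1.21 and 1.18 in PKM2ΔMAC, where the groups did not overlap. Of the summed antagonist TPM, Mnt made up 37.6% to 41.2% and Mxd4 37.4% to 40.7% over the 6 libraries. The share of Mxd3 was 1.14%, 1.32% and 1.34% in PKM2FL/FL and 1.72%, 3.16% and 1.84% in PKM2ΔMAC.

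The main comparison asked whether the loss of PKM2 went with a change in transcripts of the network. All 10 members passed the filter on low counts, and 0 of 10 were called by edgeR, against 0.412% of all genes (0.285% higher and 0.127% lower). DESeq2 and limma, the latter on log2(TPM + 1), also called 0 of 10, against 1.83% and 0.281% of all genes. At an unadjusted p below 0.05 there was 1 member, Mxd3, where 9.83% of all genes passed. By sign, 4 members were higher in PKM2ΔMAC (Myc, Mycl, Mxd3 and Mlxip) and 6 were lower, Mxd4 among them only in part of the processing choices, and the median log2 fold change was -0.049 against -0.00021 over all genes. For 8 of the 10 members the 95% interval of the difference lay within 1.5-fold in either direction, Mycl and Mxd3 being the exceptions.

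**Figure D2:**
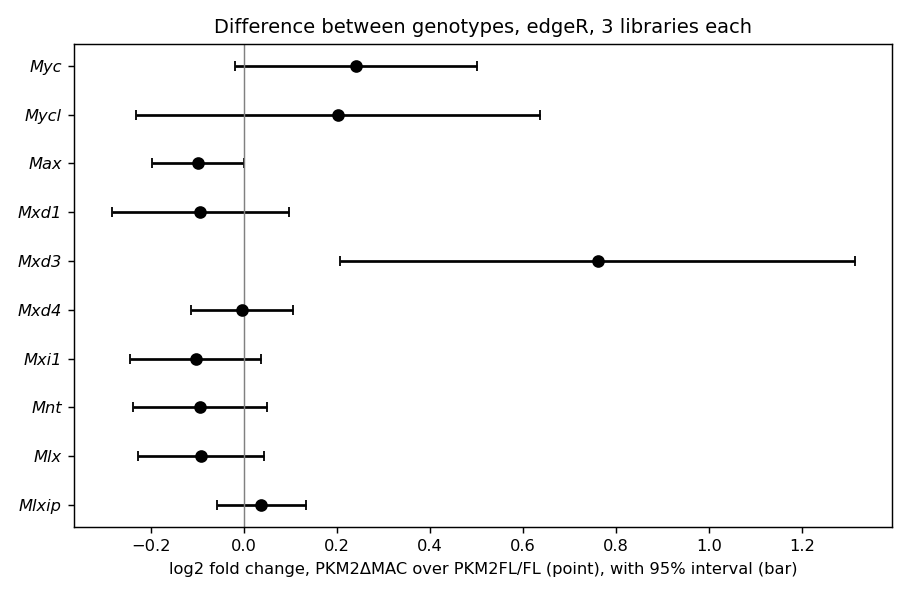
Log2 fold change of each member, PKM2ΔMAC over PKM2FL/FL, with bars for the 95% interval of the edgeR fit (n = 3 mice per genotype). Mxd3 at 0.76 is the member whose interval (0.21 to 1.31) leaves out 0, and its adjusted p was 0.355.

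In CPM, the 3 libraries of one genotype lay entirely above those of the other for 5 members, with Mycl and Mxd3 higher and Max, Mxi1 and Mlx lower in PKM2ΔMAC. Over all genes tested, 17.2% showed such separation (8.92% higher and 8.32% lower). In TPM the separated members were Myc, Mycl, Mxd3 and Mlxip, each higher, and none was lower, against 22.1% of all genes separated on that scale (19.0% higher and 3.15% lower). The separation of Max, Mxi1 and Mlx in one direction thus held in CPM alone.

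**Figure D3:**
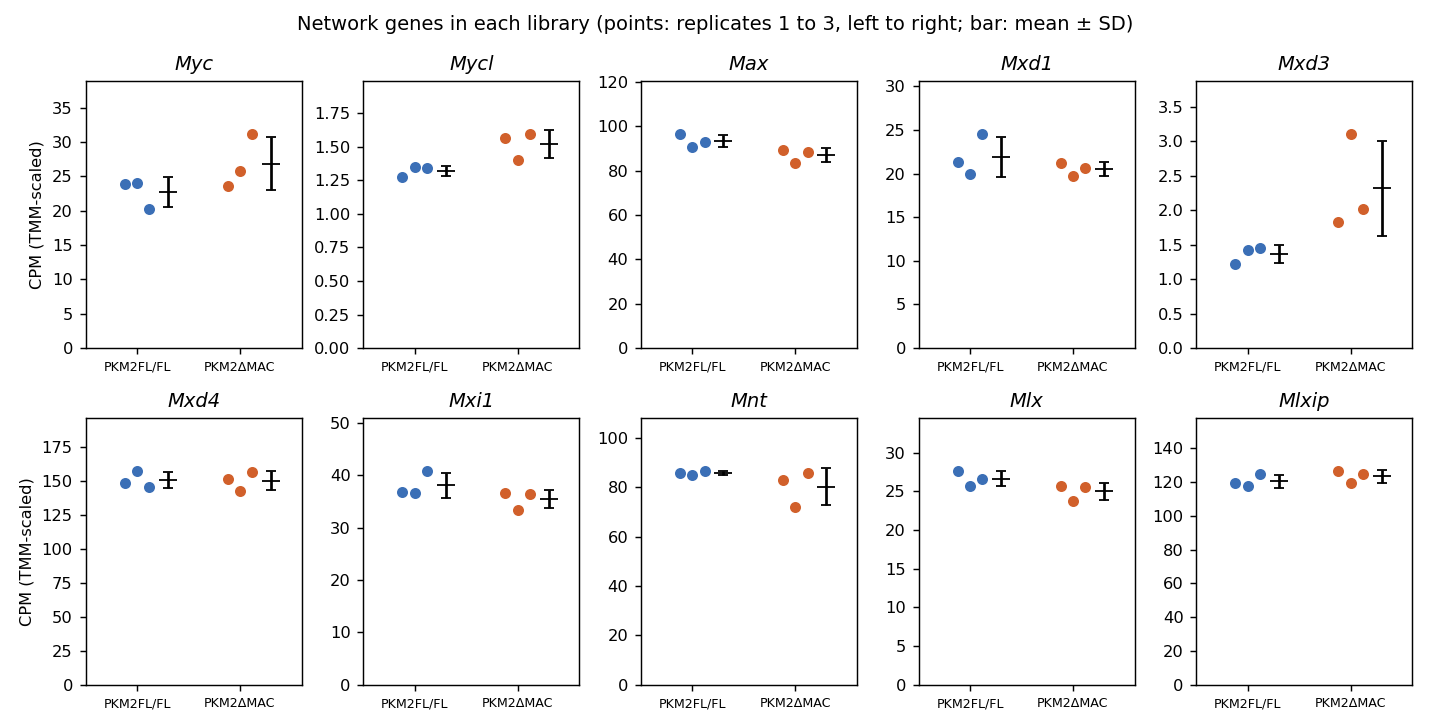
Level of each member in TMM-scaled CPM, with 1 point per library and the mean and SD of 3 mice per genotype. The PKM2FL/FL and PKM2ΔMAC points are separated for Mycl, Max, Mxd3, Mxi1 and Mlx and overlap for the other 5 members.

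Myc, the activator that gives the network its name, was 23.9, 24.0 and 20.3 CPM in PKM2FL/FL against 23.6, 25.8 and 31.1 CPM in PKM2ΔMAC. PKM2ΔMAC 3 was the highest library, and PKM2ΔMAC 1 lay within the PKM2FL/FL range. The means were 22.7 ± 2.12 and 26.8 ± 3.85 CPM, a log2 fold change of 0.24 (SE 0.11, 95% interval -0.020 to 0.50, adjusted p = 0.539), and the exact permutation test gave p = 0.30, where 0.10 is the smallest that 3 against 3 can give. The difference was 0.12 without PKM2ΔMAC 3. Counts behind these values were 1277, 1246 and 1030 in PKM2FL/FL and 1253, 1418 and 1544 in PKM2ΔMAC. Myc (GRCm38, chromosome 15, 61985391 to 61990374, plus strand) showed no exonic overlap with another gene in the annotation.

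Mycl (chromosome 4, 122995652 to 123002485, plus strand), a Myc paralog that is known from dendritic cells, was at the bottom of the order, with 1.27, 1.35 and 1.34 CPM in PKM2FL/FL against 1.56, 1.40 and 1.59 CPM in PKM2ΔMAC. Every PKM2ΔMAC library was higher, but the lowest of them, PKM2ΔMAC 2, was close to the PKM2FL/FL values. These levels rested on 68 to 83 counts per library, for which counting alone gives a coefficient of variation of 10.98% to 12.1%. The log2 fold change was 0.20 (SE 0.19, 95% interval -0.23 to 0.64, adjusted p = 0.793). Dendritic cell markers summed to 3.75 to 4.07 CPM in PKM2FL/FL and 3.47 to 4.37 CPM in PKM2ΔMAC.

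Max (chromosome 12, 76937269 to 76962201, minus strand), the partner that Myc and the antagonists share, was 96.3, 90.7 and 93.1 CPM in PKM2FL/FL against 89.6, 83.6 and 88.5 CPM in PKM2ΔMAC. All PKM2ΔMAC libraries were below all PKM2FL/FL libraries on this scale, by a small margin. The log2 fold change was -0.098 (SE 0.043, 95% interval -0.20 to 0.00094, adjusted p = 0.512; exact permutation p = 0.10, the smallest this design can give). The difference was -0.067 without PKM2ΔMAC 2. In TPM the groups overlapped, at 92.9, 89.4 and 90.2 against 90.3, 88.7 and 88.6.

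Mxd3, an antagonist that is known for expression in cycling cells during S phase, had the largest difference of the 10 members. It was 1.22, 1.42 and 1.46 CPM in PKM2FL/FL against 1.83, 3.10 and 2.01 CPM in PKM2ΔMAC. All PKM2ΔMAC libraries were higher, and PKM2ΔMAC 2 stood well above the other two. The means were 1.37 ± 0.130 and 2.31 ± 0.684 CPM, a log2 fold change of 0.76 (SE 0.24, 95% interval 0.21 to 1.31), with an unadjusted p of 0.0128 and an adjusted p of 0.355 from edgeR. The values rested on 65, 74 and 74 counts in PKM2FL/FL and 97, 170 and 100 counts in PKM2ΔMAC. Without PKM2ΔMAC 2 the log2 fold change was 0.49, and under the other single omissions it reached up to 0.90.

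Mxd3 (chromosome 13, 55325168 to 55329823, minus strand) shares 105 exonic bases with Prelid1 on the opposite strand, a gene with 8394 to 9549 counts per library, and whether the counting used strand is not given in the sources used here. Its promoter is shown because Mxd3 carried the largest difference of the network, with each GC box core GGGCGG in capitals (chr13:55329682-55329981, minus strand, 5′ to 3′). Both strands were searched, and the window held 8 matches, all on the strand shown and some of them overlapping, and no CACGTG. This GC box core was found in 9 of the 11 member windows and in 35.7% of all promoters.
Mxd3: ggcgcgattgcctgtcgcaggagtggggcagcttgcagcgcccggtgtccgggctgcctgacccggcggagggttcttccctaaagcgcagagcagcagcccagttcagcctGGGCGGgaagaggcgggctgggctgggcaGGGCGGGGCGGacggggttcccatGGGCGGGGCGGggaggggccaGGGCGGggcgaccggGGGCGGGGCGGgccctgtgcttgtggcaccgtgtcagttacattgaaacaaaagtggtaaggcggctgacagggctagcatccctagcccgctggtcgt

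Cell cycle genes were highest in the same library as Mxd3. Relative to the PKM2FL/FL mean, log2 Mxd3 was -0.15, 0.060 and 0.090 in PKM2FL/FL and 0.40, 1.13 and 0.53 in PKM2ΔMAC. The median of 28 cell cycle genes on the same scale was -0.037, 0.017 and -0.0086 in PKM2FL/FL and 0.15, 0.65 and 0.16 in PKM2ΔMAC. PKM2ΔMAC 2 thus held the top value of both, and the part of the cell cycle genes in the Mxd3 difference was not tested. Neutrophil markers, which were also higher in PKM2ΔMAC, were lowest among the PKM2ΔMAC libraries in that same library, and their part was not tested either.

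**Figure D4:**
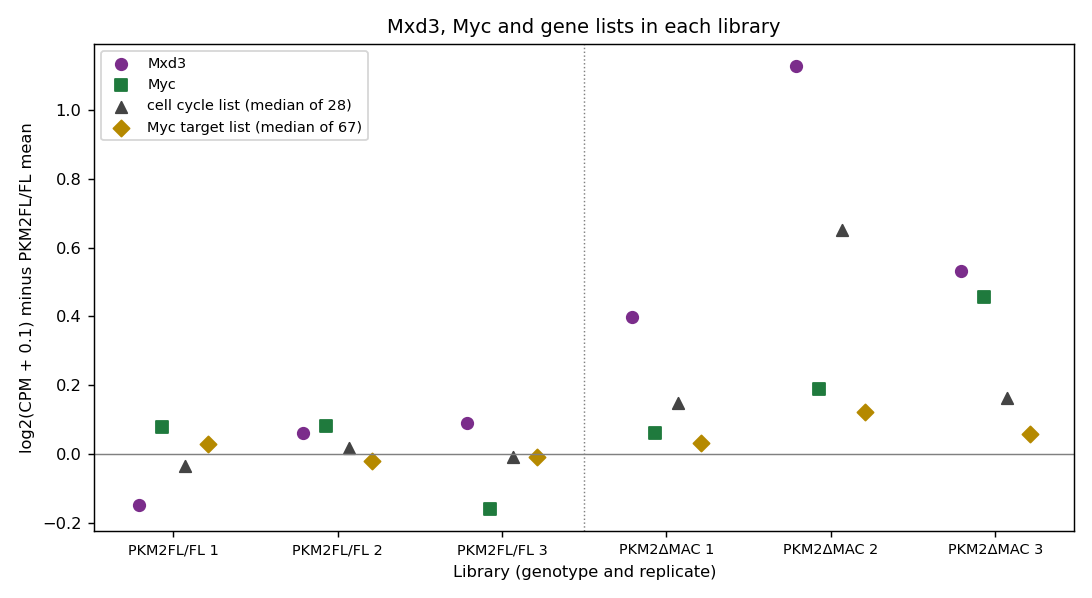
Log2 level of Mxd3 and Myc and the median of the cell cycle and Myc target lists in each library, relative to the PKM2FL/FL mean. PKM2ΔMAC 2 is highest for Mxd3 (1.13) and for the cell cycle median (0.65), and PKM2ΔMAC 3 is highest for Myc (0.46).

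The other Mxd antagonists and Mxi1 had differences close to 0. Mxd1 lies on chromosome 6 (86647042 to 86669161, minus strand), Mxd4 on chromosome 5 (34173883 to 34187720, minus strand) and Mxi1 on chromosome 19 (53310518 to 53375810, plus strand). Mxd1, which is known to rise as myeloid cells mature, was 21.3, 19.99 and 24.5 CPM in PKM2FL/FL against 21.3, 19.7 and 20.7 CPM in PKM2ΔMAC, and the groups overlapped (log2 fold change -0.094, SE 0.084, 95% interval -0.28 to 0.096, adjusted p = 0.778). The single high library PKM2FL/FL 3 carried most of this difference, which was -0.0086 without it. The Mxd1 difference was -0.16 without PKM2FL/FL 2 and -0.016 on the log2(TPM + 1) scale. Mxd4, found mainly in non-dividing cells, was 149, 157 and 146 CPM in PKM2FL/FL against 152, 143 and 156 CPM in PKM2ΔMAC. Its log2 fold change of -0.0043 (SE 0.048, 95% interval -0.11 to 0.10, adjusted p = 0.986) was the closest to 0 among the members, and its sign turned in TPM, to 0.067. Mxi1, also called Mxd2, was 36.9, 36.6 and 40.8 CPM in PKM2FL/FL against 36.6, 33.4 and 36.3 CPM in PKM2ΔMAC. The lowest PKM2FL/FL and the highest PKM2ΔMAC library of Mxi1 were nearly equal, and the log2 fold change was -0.10 (SE 0.062, 95% interval -0.25 to 0.037, adjusted p = 0.639). It was -0.053 without PKM2FL/FL 3, -0.062 without PKM2ΔMAC 2 and -0.030 on the log2(TPM + 1) scale.

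Mnt (chromosome 11, 74830920 to 74845725, plus strand), a widely expressed antagonist that binds Max as well as Mlx, was 85.8, 84.9 and 86.6 CPM in PKM2FL/FL against 82.9, 72.02 and 86.0 CPM in PKM2ΔMAC. The PKM2FL/FL libraries were tightly grouped, and PKM2ΔMAC 2 alone was clearly lower. The log2 fold change was -0.095 (SE 0.063, 95% interval -0.24 to 0.049, adjusted p = 0.678), and it was -0.021 without PKM2ΔMAC 2. It was -0.15 without PKM2ΔMAC 3 and -0.026 on the log2(TPM + 1) scale. On the CPM scale PKM2ΔMAC 2 was the lowest of the 6 libraries for 6 of the 10 members, with log2 deviations from the PKM2FL/FL mean of -0.25 for Mnt, -0.19 for Mxi1, -0.17 for Mlx, -0.16 for Max, -0.15 for Mxd1 and -0.076 for Mxd4, while it was the highest for Mxd3. In TPM it was the lowest for Mnt, Mxi1 and Mlx.

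In the glucose-responsive branch, Mlx was 27.6, 25.7 and 26.6 CPM in PKM2FL/FL against 25.7, 23.7 and 25.5 CPM in PKM2ΔMAC. The groups were separated only by the narrow gap between PKM2FL/FL 2 and PKM2ΔMAC 1, and the log2 fold change was -0.093 (SE 0.059, 95% interval -0.23 to 0.042, adjusted p = 0.665), or -0.056 without PKM2ΔMAC 2. Opposite-strand exons of 3 genes not analysed here overlap Mxd4 by 514 bases (Gm42846), Mlxip by 267 (Gm15747) and Mxi1 by 194 (Gm10197). Mlx (chromosome 11, 101087277 to 101092207, plus strand) shares 385 exonic bases with Psmc3ip on the opposite strand, which had 68 to 113 counts per library. Its partner Mlxip (chromosome 5, 123394798 to 123457932, plus strand) was 119, 117 and 125 CPM in PKM2FL/FL against 127, 119 and 125 CPM in PKM2ΔMAC, with overlapping groups (log2 fold change 0.037, SE 0.042, 95% interval -0.059 to 0.13, adjusted p = 0.832), and a difference between 0.019 and 0.064 when a library was left out. In TPM the Mlxip groups did not overlap, at 49.7, 50.1 and 52.2 against 55.1, 54.7 and 54.1, on a scale where the median of all genes was itself shifted by 0.063 on the log2 scale.

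Further genes of the pathway were described in lists, each by its count and its median log2 fold change beside -0.00021 for all genes. edgeR called 0 genes in each of the 9 lists, while DESeq2, which called 1.83% of all genes, called 1 of 67 Myc targets and 2 of 28 cell cycle genes. Of 12 other network genes and E-box binding relatives, 11 were tested, with 4 higher and 7 lower by sign, a median of -0.00067, and 1 higher and 2 lower at an unadjusted p below 0.05, against 9.83% of all genes. Groups did not overlap for 1 higher and 2 lower (27.3%, against 17.2% of all genes). The 3 with the smallest p were Mitf, a pigment and macrophage lineage E-box factor (0.15, SE 0.058, adjusted p = 0.461), Bin1, a Myc-interacting adaptor (-0.15, SE 0.059, adjusted p = 0.451), and Usf2, which binds the same CACGTG core (-0.13, SE 0.048, adjusted p = 0.412). Tfe3, another E-box factor, was 165 CPM in both genotypes, and Mycbp2, a large Myc-binding ubiquitin ligase, was at 0.090 (adjusted p = 0.535). Mitf was at 0.090 without PKM2ΔMAC 3 and called at 0.20 without PKM2ΔMAC 2 (adjusted p = 0.0464), and Mycbp2 was at 0.059 without PKM2ΔMAC 2. The remaining paralogs were near the floor, as Mycn had 6 to 21 counts per library and Mlxipl (ChREBP) had 2 to 12 and was not tested.

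Cofactors were also close to 0 in their median difference. Of 16 Sin3 and histone deacetylase corepressor genes 14 were higher by sign with a median of 0.044 (0.0060 without PKM2ΔMAC 2). The unadjusted threshold was passed by 1 of the 16, against 9.83% of all genes. Groups did not overlap for 1 gene, which was higher (6.25%, against 17.2% of all genes). The gene past the threshold was the deacetylase Hdac2, at 53.2 CPM in PKM2FL/FL against 57.0 CPM in PKM2ΔMAC (0.098, adjusted p = 0.481). The other named corepressor genes were Arid4a at 0.081 (adjusted p = 0.591, or 0.053 without PKM2ΔMAC 1), Rbbp7 at 0.11 (0.708) and Rbbp4 at 0.069 (0.764), and without PKM2ΔMAC 2 Rbbp7 was at 0.0086 and Rbbp4 at 0.0066. Of 16 Myc coactivators 10 were higher by sign with a median of 0.022 (0.011 without PKM2ΔMAC 2 and 0.036 without PKM2FL/FL 3). An unadjusted p below 0.05 was reached by 0 of the 16, against 9.83% of all genes. Groups did not overlap for 1 higher and 1 lower of the coactivators (12.5%, against 17.2% of all genes). Their smallest p belonged to Crebbp at 0.11 (adjusted p = 0.508), Cdk9 at -0.076 (0.514) and Actl6a at 0.11 (0.535), and the acetyltransferase scaffold Trrap was at -0.0025 (adjusted p = 0.991), with a positive sign in TPM. Of 18 genes for Myc protein stability 14 were higher by sign, with a median of 0.073. In that list the groups did not overlap for 7 genes (38.9%), all higher, where 17.2% of all genes were separated and 8.92% were separated and higher. The unadjusted threshold was passed by 2 of the 18, against 9.83% of all genes. Its smallest adjusted p belonged to Plk1, a mitotic kinase that is a cell cycle gene too, at 9.64 ± 1.44 CPM in PKM2FL/FL against 14.1 ± 4.18 CPM in PKM2ΔMAC (0.55, SE 0.22, adjusted p = 0.491). Plk1 was at 0.27 without PKM2ΔMAC 2. Usp37 and Gsk3b were at 0.16 and 0.074 (adjusted p = 0.516 and 0.645). Usp37 was at 0.098 without PKM2ΔMAC 2 and Gsk3b at 0.033 without PKM2ΔMAC 3. Huwe1, a ubiquitin ligase with Myc among its substrates, was at 374 and 393 CPM (0.070, adjusted p = 0.580).

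Genes for ribosome biogenesis and growth that are listed as Myc targets lay slightly above 0. Of the 67 genes, 55 were higher and 12 lower by sign, and their median log2 fold change was 0.055. At an unadjusted p below 0.05 there were 7 higher and 1 lower of the 67, near the 9.83% of all genes. Groups did not overlap for 14 higher and 1 lower (22.4% of the list), against 17.2% of all genes (8.92% higher and 8.32% lower). Dkc1, the pseudouridine synthase of ribosomal RNA, was 16.2 ± 0.0688 CPM in PKM2FL/FL against 20.5 ± 1.41 CPM in PKM2ΔMAC (0.34, SE 0.070, adjusted p = 0.131 from edgeR, 0.0114 from DESeq2). The replication helicase subunit Mcm4 was 37.8 ± 0.784 and 46.9 ± 5.99 CPM (0.31, SE 0.084, adjusted p = 0.267, or 0.20 without PKM2ΔMAC 2), and Cad, the enzyme that starts pyrimidine synthesis, was 48.5 ± 1.51 and 53.9 ± 1.66 CPM (0.15, SE 0.045, adjusted p = 0.329). The most abundant genes of the list were nearly level, with the translation helicase Eif4a1 at 495 and 496 CPM and nucleolin, Ncl, at 306 and 320 CPM (0.063, or 0.039 without PKM2ΔMAC 3). The median of the list in each library, relative to the PKM2FL/FL mean, was 0.028, -0.020 and -0.0094 in PKM2FL/FL and 0.031, 0.12 and 0.057 in PKM2ΔMAC, highest in PKM2ΔMAC 2, whereas Myc itself was highest in PKM2ΔMAC 3.

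Of 14 glucose-responsive genes of the Mlx branch 12 were tested, with 10 higher and 2 lower by sign and a median of 0.065, which was 0.021 without PKM2ΔMAC 3. At an unadjusted p below 0.05 there were 2 higher and 1 lower of the 12, against 9.83% of all genes. Groups did not overlap for 1 higher and 1 lower (16.7%, against 17.2% of all genes). Txnip, the classical target that limits glucose uptake, was 338 ± 4.28 CPM in PKM2FL/FL against 364 ± 37.9 CPM in PKM2ΔMAC (0.11, SE 0.070, adjusted p = 0.678), and this difference was 0.030 without PKM2ΔMAC 3 and 0.18 without PKM2ΔMAC 2. Gpd1, which makes glycerol phosphate, was 1.83 ± 0.190 and 2.98 ± 0.858 CPM (0.70, SE 0.24, adjusted p = 0.394), and it was called when PKM2ΔMAC 2 was left out (0.92, adjusted p = 0.0313). Khk, the fructose kinase, was 12.5 and 11.03 CPM (-0.19, SE 0.081, adjusted p = 0.504), so the members of the list with the smallest p did not share a direction. Elovl6, a fatty acid elongase, was at 0.26 (adjusted p = 0.481) and the transketolase Tkt at 0.038 (0.852), with Tkt between 0.0081 and 0.073 when a library was left out.

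Of 6 splicing regulators that link Myc to the choice of Pkm isoform, 5 were higher by sign with a median of 0.090. The unadjusted threshold was passed by 2 of them, against 9.83% of all genes. Groups did not overlap for 3, all higher (50% of the list), against 17.2% of all genes (8.92% higher). Hnrnpa1 was 153 ± 3.68 CPM in PKM2FL/FL against 169 ± 7.94 CPM in PKM2ΔMAC (0.14, SE 0.045, adjusted p = 0.355), and Srsf3, which favours inclusion of the PKM2 exon, was 122 ± 3.06 and 133 ± 4.45 CPM (0.12, SE 0.041, adjusted p = 0.378). The polypyrimidine tract binder Ptbp1 was 201 and 206 CPM (0.032, adjusted p = 0.859), Hnrnpa2b1 was at 0.055 (0.757), and Nek2, a mitotic kinase, was at 0.42 (0.583). Without PKM2ΔMAC 2, Ptbp1 was at 0.0053, Hnrnpa2b1 at 0.021 and Nek2 at 0.11.

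The 28 cell cycle genes had the largest median of the lists, 0.38, with 26 higher by sign and 10 higher at an unadjusted p below 0.05, against 9.83% of all genes in either direction. Groups did not overlap for 14 genes, all higher (50% of the list), against 17.2% of all genes (8.92% higher). The median was 0.19 without PKM2ΔMAC 2. Birc5 (survivin) was 8.69 ± 0.888 CPM in PKM2FL/FL against 14.1 ± 4.11 CPM in PKM2ΔMAC (0.70, SE 0.20, adjusted p = 0.341), and Mki67 was 124 ± 5.28 and 185 ± 53.8 CPM (0.58, SE 0.21, adjusted p = 0.474). Without PKM2ΔMAC 2, Birc5 was at 0.43 (adjusted p = 0.0834) and Mki67 at 0.32 and called (adjusted p = 0.0154). DESeq2 called these 2 genes of the list, with adjusted p = 0.0249 for Birc5 and 0.0233 for Mki67. Pcna, the sliding clamp of replication, was 169 ± 17.4 and 208 ± 17.6 CPM (0.30, SE 0.088, adjusted p = 0.347), and the thymidylate synthase gene Tyms was at 0.38 (0.355). Of 25 LPS and IFN-γ response genes 23 were tested, with 13 higher and 10 lower by sign and a median of 0.034. An unadjusted p below 0.05 was reached by 1 of the 23, which was lower, against 9.83% of all genes. Groups did not overlap for 1 higher and 3 lower (17.4%, against 17.2% of all genes). The itaconate enzyme Acod1 was 3.96 ± 0.499 and 2.35 ± 0.696 CPM (-0.75, SE 0.23, adjusted p = 0.334). Gbp5, a guanylate-binding protein, was at -0.29 (adjusted p = 0.515). Ptgs2, the inducible cyclooxygenase, had a difference of similar size in the other direction, at 7.26 CPM in PKM2FL/FL against 11.8 CPM in PKM2ΔMAC (0.70, adjusted p = 0.526), with overlapping groups, and it was at 0.36 without PKM2ΔMAC 2. The median of the response list ranged from -0.0093 to 0.12 when a library was left out.

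**Figure D5:**
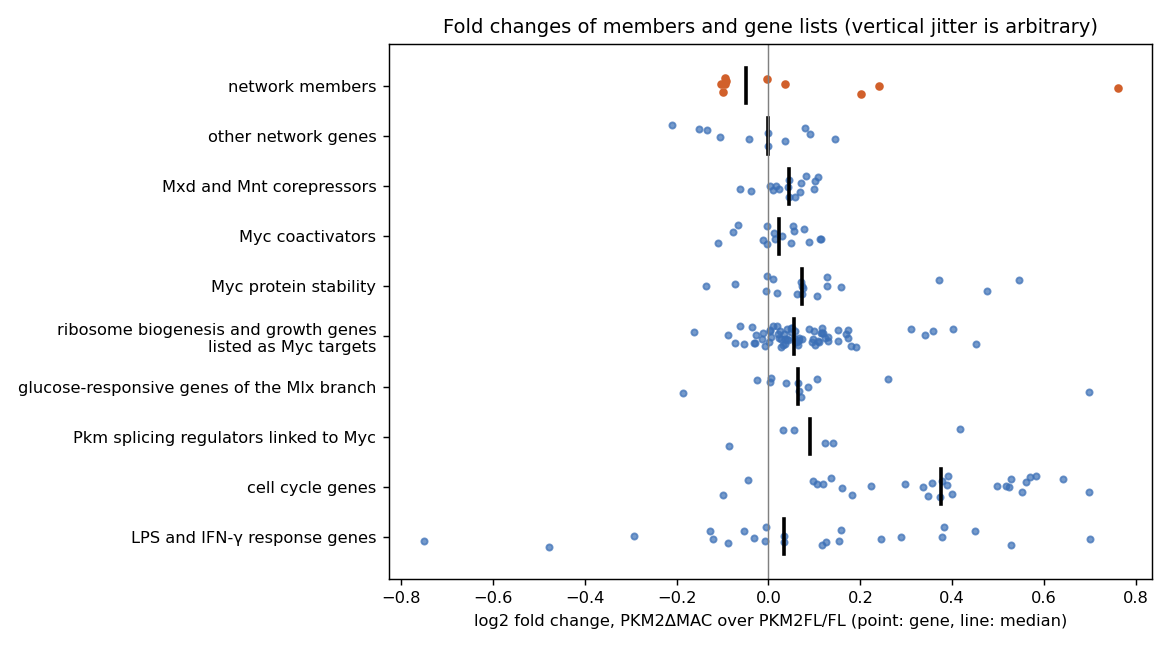
Log2 fold change of every tested gene in each list, PKM2ΔMAC over PKM2FL/FL, with the list median marked. The cell cycle list has the highest median (0.38), and the other lists have medians between -0.00067 and 0.090.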

How the data were processed

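Total RNA of 6 BMDM cultures was sequenced after library preparation with a SMARTer kit, per the labels. The authors deposited 2 tables by gene symbol, raw counts and TPM. Per the submitters' processing notes, the tools were FastQC 0.12.1, Trim Galore 0.6.10, HISAT2 2.2.1, SAMtools 1.19.2 and Subread 2.0.6 with the mm10 genome. The strand setting is not given in the sources used here. Table columns were matched to mice by genotype name and mouse number. The deposited TPM values followed merged exon lengths of GENCODE M21 within 0.1% for 16181 of 16495 genes, so coordinates come from that annotation (GRCm38).

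Deposited counts were filtered with filterByExpr (16516 of 23935 genes kept), scaled by TMM (factors 0.980 to 1.04) and fitted with edgeR 4.0.16 in R 4.3.3, with genotype as the only term and robust quasi-likelihood estimation over all genes. SEs were derived from the log2 fold change and its F statistic. Exact permutation tests were two-sided, on log2(CPM + 0.1). DESeq2 1.42.0 and limma 3.58.1, the latter on log2 of the deposited TPM plus 1 or 0.1, were alternatives, with other normalizations and filters, down-sampling, a replicate block and leaving out each library. Overlap of members in TPM was added after seeing the data. Statistics were tested on simulated data.

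Replicates came from separate mice, and no 2 libraries were near-identical. Counts of 2 libraries of a genotype were compared by chi-square per degree of freedom. PKM2ΔMAC 2 stood apart over all genes, at 43.1 against PKM2ΔMAC 1 and 53.8 against PKM2ΔMAC 3. The value was 10.1 between PKM2ΔMAC 1 and 3, and 7.55 to 13.7 within PKM2FL/FL. Members and lists were chosen with earlier results of these data known. Named genes were the members, Pkm, Lyz2 and, of each list, every called gene, the 3 with the smallest p and the 2 with the highest CPM, of which 1 is not reported here. Mycn, Mlxipl, Itgam, the stromal markers and single response genes were named afterwards. Intervals cover the fit or, for counting variation, counting error only. RefSeq promoters were searched on both strands for the E-box core, its looser form and the GC box core. Protein sequences were not analysed here.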

Additional observations from a re-analysis of the deposited data

How the results depend on the processing

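Across 17 alternatives, 0 network members were called in each, and 9 of the 10 kept their sign. Over the alternatives other than leaving out a library, Mxd3 ranged from 0.58 to 0.78 (adjusted p 0.182 to 0.428), Myc from 0.23 to 0.31 (0.360 to 0.605), Max from -0.10 to -0.026 and Mlx from -0.098 to -0.020. In the same alternatives Mxd1 ranged from -0.096 to -0.016, Mxi1 from -0.11 to -0.030 and Mnt from -0.099 to -0.026. Mycl ranged from 0.15 to 0.25 and Mlxip from 0.035 to 0.11. Mxd4 turned to 0.0027 with upper-quartile scaling and to 0.067, 0.068 and 0.067 with log2(TPM + 1), log2(TPM + 0.1) and unfiltered log2(TPM + 1), and ranged from -0.034 to 0.032 when a library was left out. Those 3 TPM settings moved the median of all genes to 0.063, 0.067 and 0.046. In them Pkm was -0.61 each time and no longer called (adjusted p = 0.119, 0.118 and 0.156). Leaving out a library gave -0.78 to -0.62, and the call was lost without PKM2FL/FL 1, 2 or 3 (0.0761, 0.0754 and 0.0993). Depth limits Mycl and Mxd3 most.

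Calls over all genes were 68 (47 higher, 21 lower), 302 (195 and 107) with DESeq2, 120 (77 and 43) without a filter, 41 with log2(TPM + 1) (9 lower), 32 (24 and 8) with log2(TPM + 0.1) and 36 (27 and 9) with unfiltered log2(TPM + 1). They ranged from 22 to 299 (17 to 164 higher, 5 to 135 lower) when a library was left out, with 26, 27 and 22 without PKM2FL/FL 1, 2 and 3 and 299 without PKM2ΔMAC 2. DESeq2 called 1 Myc target and 2 cell cycle genes. Without PKM2ΔMAC 2 there was 1 other network gene (Mitf, 0.20, adjusted p = 0.0464), 1 of the Mlx branch, 3 cell cycle and 2 response genes (Acod1, -0.97, 0.0424, and Ciita, -0.37, 0.00254), so calls under single omissions ranged from 0 to 1, 0 to 1, 0 to 3 and 0 to 2. The cause was not tested.

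List medians followed the shift of the TPM scale. Under the 3 TPM settings, in the order above, they were 0.070, 0.072 and 0.050 for other network genes (-0.023 without a count filter), 0.11, 0.12 and 0.11 for corepressors, 0.091, 0.094 and 0.091 for coactivators, 0.14, 0.15 and 0.14 for Myc stability, 0.12, 0.13 and 0.12 for Myc targets, 0.16 in each for splicing regulators, and 0.13 in the filtered settings for the Mlx branch. Leaving out a library gave -0.021 to 0.012 for other network genes and -0.0093 to 0.12 for response genes.

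Genes near 0 turned in sign. Mycn was 0.0033 after down-sampling and -0.60 to 0.080 when a library was left out. Tfe3 was 0.0065 with upper-quartile scaling, 0.0013 with at least 10 counts per library, 0.071, 0.072 and 0.071 in TPM and -0.019 to 0.012 under omissions. Ep300, a coactivator at -0.012, was 0.059, 0.060 and 0.059 in TPM and -0.046 to 0.013. Trrap was 0.0044 with upper-quartile scaling, 0.0012 after down-sampling, 0.068, 0.070 and 0.068 in TPM and -0.012 to 0.013. Eif4a1 ranged from -0.039 to 0.038, Marcksl1, a response gene at 0.12, from -0.15 to 0.27, and Ciita, at 0.034, from -0.37 to 0.21.

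Whether mouse numbers pair the libraries is not known and was not tested. Same-numbered libraries deviated with correlations of 0.0797, 0.141 and 0.0188. Differently numbered libraries of the 2 genotypes gave -0.0792, -0.00101, -0.124, -0.0161, 0.0670 and -0.0859. With the replicate block 82 genes were called over all genes, 0 of them members. Mxd3 was 0.73 (adjusted p = 0.277) and Myc 0.23 (0.584), and Ciita turned to -0.041.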
